A study of Mus musculus with 8 samples.

Results

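Cultures that flew on a centrifuge turning at 1g were compared with cultures of the same kind kept in flight-type units on the ground, so that both sides were under 1g. The comparison used 4 of the 8 arrays of the series, chosen by their titles: 2 from the centrifuge and 2 from the ground, 1 of each in growth medium and 1 in osteoinductive medium. Bone marrow was flushed from the femurs and tibiae of C57BL/6 mice between 6 and 8 weeks old, and the adherent stromal cells were expanded and seeded on Skelite, a porous calcium phosphate scaffold. The 2 centrifuge arrays (BMSC-FC in growth medium, BOI-FC in osteoinductive medium) come from constructs in automated units inside the KUBIK incubator in orbit. The 2 ground arrays (BMSC-GC and BOI-GC) come from constructs in the same make of unit, operated by hand at normal gravity. The other 4 arrays are from cultures in microgravity in the same incubator and from cultures in laboratory dishes, again 1 for each medium, and they entered the estimate of the spread and a few comparisons given at the end.

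The groups therefore differ in spaceflight, in automated against manual handling and in all that goes with either, and these cannot be told apart. The centrifuge arrays carry a gravity label that reads microgravity, against their titles and descriptions, and one sentence of the BOI-FC description names growth medium. The medium could be checked on the arrays: 9 genes differed by more than 4-fold between the media, in the same direction, in both the ground and the dish pair, and all 9 differed by more than 2-fold in that direction between the 2 centrifuge arrays. No label states that each array stands for a culture or an animal of its own. No condition has a repeat array within a medium, so the arrays give no spread between replicates. The p-values rest instead on how far differences between conditions disagree between the media, over all arrays of the series. That spread cannot separate responses that depend on medium from noise between arrays, which may be technical.

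Bone marrow stromal cells are the adherent, fibroblast-like cells of the marrow, which support blood formation and can give rise to bone, cartilage and fat cells. In culture they divide, lay down a collagen-rich matrix through a busy secretory pathway, and pull on their substrate with contractile actin fibres. Genes of cell division, secretion, contraction and matrix are thus read first here, followed by genes that such cultures are not known for.

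Array medians lay between 180.9 and 196.4 intensity units over the 8 arrays, a range of 0.12 on the log2 scale. Some stromal genes were bright on all 4 arrays, while Lepr, Angpt1 and Nes lay below the filter on dim genes. Vim, the intermediate filament of mesenchymal cells, read 7448 and 6094 on the centrifuge arrays and 9618 and 9684 on the ground arrays, a called fall of 0.52 on the log2 scale (adjusted p = 0.0189). Here and below, a pair of values gives growth medium first and osteoinductive medium second. Col1a1, the main chain of bone collagen, read 6290 and 6865 against 6384 and 6485, its log2 difference being 0.03 (SE 0.12, adjusted p = 0.912). Alpl, the alkaline phosphatase of bone-forming cells, read 221.1 and 229.9 against 191.9 and 180.5, near the middle of the array. The pan-leukocyte gene Ptprc and the macrophage gene Adgre1 lay below the filter on dim genes, at 135.6 and 144.4 against 153.5 and 134.2 for Ptprc.

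Of 13205 genes tested, 837 were higher and 499 lower on the centrifuge at an adjusted p below 0.05, which is 6.34% and 3.78% of the genes and 10.1% together. Without adjustment 3102 genes had a p below 0.05. The rises were the larger changes: 256 of the 837 exceeded 2-fold and 41 exceeded 4-fold (a log2 difference of 2), whereas 65 of the 499 falls exceeded 2-fold and 1 exceeded 4-fold. All 1336 called genes had the same sign in both media. The fit favours such genes, since disagreement between media enters its spread. The count moved with single arrays. With the osteoinductive centrifuge array left out it was 726, with the osteoinductive ground array left out 643, and with the growth ground array left out 796. It was 2087 when the growth centrifuge array was dropped. The falls moved most, being 129 and 117 when the centrifuge or the ground array in osteoinductive medium was dropped, but 1372 when the growth centrifuge array was.

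The differences within each medium come from separate pairs of arrays and can be set side by side, with no test, since each has 1 array a side. Over all tested genes the 2 differences had a Pearson correlation of 0.73, as a description across genes, which are not independent. Growth medium held 321 genes more than 2-fold higher (2.43%) and 32 more than 2-fold lower (0.242%), and osteoinductive medium held 204 (1.54%) and 164 (1.24%). Of these, 185 were higher in both, which is 57.6% of the growth list and 90.7% of the osteoinductive list. In the other direction 31 were lower in both, 96.9% of the growth list but 18.9% of the osteoinductive list. No gene was over 2-fold higher in one medium and over 2-fold lower in the other. Among the called genes, 644 of 837 rises were larger in growth medium and 440 of 499 falls were deeper in osteoinductive medium. The called rises had medians of 0.83 (growth) and 0.68 (osteoinductive), and the called falls -0.42 and -0.78.

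**Figure D1:**
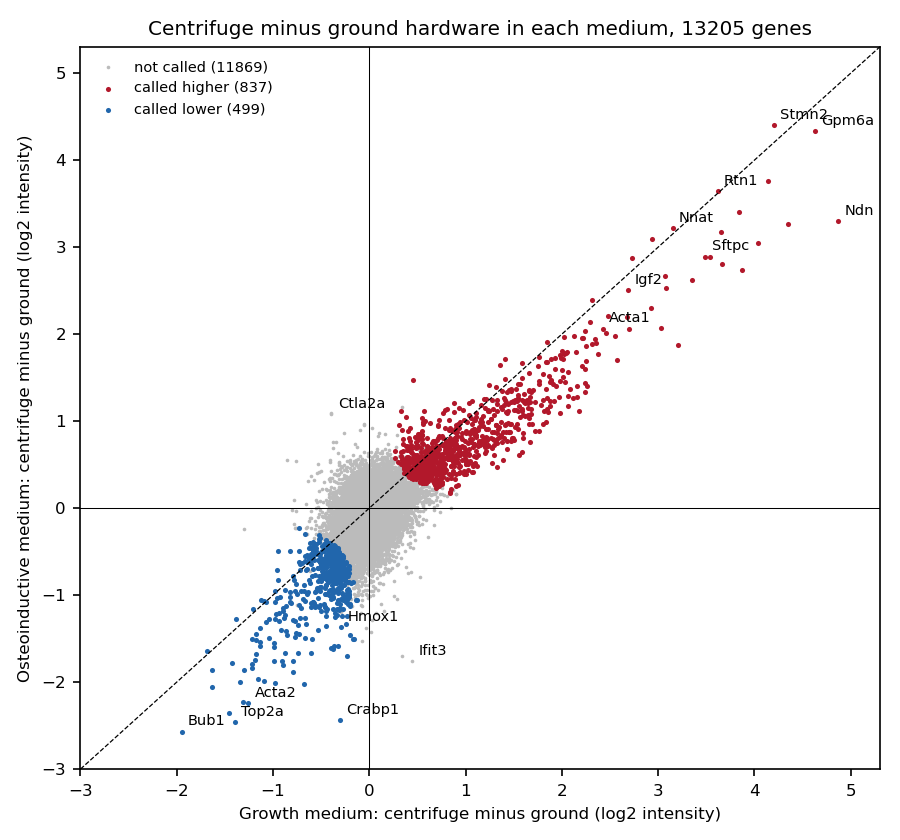
Each point is one of 13205 genes, placed by its log2 difference between centrifuge and ground in growth medium (x axis) and in osteoinductive medium (y axis), 1 array a side, with the line of equal change dashed. The 837 called rises spread far to the upper right, mostly below the line, and the 499 called falls lie to the lower left, mostly below the line as well, which is where a fall is deeper in osteoinductive medium.

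Genes of cell division fell most. Of 38 tested genes of mitosis and the kinetochore, the protein plate through which spindle fibres hold a chromosome, 37 were called lower and none higher, against 3.78% of all genes. Of 25 genes of the spindle and of cytokinesis, the final splitting of the cell, 22 were called lower and none higher. The median log2 difference was -1.08 in both lists, -0.91 and -0.98 in growth medium and -1.26 and -1.15 in osteoinductive medium, against -0.03 over all tested genes. All 38 mitosis genes read lower on both centrifuge arrays than on both ground arrays, and so did 23 of the 25 spindle genes, compared with 24.1% of all genes. Leaving out a centrifuge or ground array left between 27 and 35 mitosis genes and between 19 and 22 spindle genes called lower.

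Bub1, a kinase of the checkpoint that holds cells in mitosis until every chromosome is attached, read 116.3 and 54.3 on the centrifuge arrays and 448.8 and 322.3 on the ground arrays (probe set 10487480). It was 4.79-fold lower, with a log2 difference of -2.26 (SE 0.17, adjusted p = 3.1e-06), and it was the only called gene to fall by more than 4-fold. Plk1, the polo-like kinase that drives entry into and passage through mitosis, read 190.8 and 188.8 against 592.5 and 684.6, a 3.36-fold fall (log2 difference -1.75, SE 0.15, adjusted p = 9.84e-06). Neither gene had overlapping groups.

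The motors and builders of the spindle showed the same picture. Kif11, the kinesin that pushes spindle poles apart, read 149.7 and 95.1 against 401.8 and 327.2, and Cenpe, the kinesin that moves chromosomes to the spindle equator, 108.3 and 98.1 against 348.1 and 306.9. Kif23, Prc1, Ect2 and Anln, which organise the midzone and the contractile ring of dividing cells, were 3.18-fold, 2.99-fold, 3.76-fold and 3.42-fold lower. Top2a, the topoisomerase that untangles replicated chromosomes, fell from 1205 to 457.4 in growth medium and from 1102 to 199.6 in osteoinductive medium. Mki67, the proliferation marker Ki-67, fell from 497.8 and 469.7 to 237.1 and 188.9, which is 2.28-fold (adjusted p = 3.53e-05). Cdk1, the kinase at the centre of mitotic entry, fell, with log2 differences of -0.68 in growth medium and -2.03 in osteoinductive medium (-1.35 in the fit, SE 0.22, adjusted p = 0.00161). Cip2a, Knstrn, Shcbp1, Bub1b and Tpx2 complete the 15 deepest falls together with Acta2, described below. They were ranked by the smaller of their differences within a medium, so a change in both pairs of arrays was part of the choice.

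Genes of DNA replication fell less, and less evenly between media. Of 42 tested, 16 were called lower and none higher, against 3.78% and 6.34% of all genes. The list had medians of -0.23 (growth) and -0.63 (osteoinductive), against -0.01 and -0.06 over all tested genes. Dbf4, the activator of the kinase that fires replication origins, read 304 and 121.7 against 526 and 449.8, a 2.53-fold fall (log2 difference -1.34, SE 0.19, adjusted p = 0.000579). Uhrf1, which carries DNA methylation through replication, and Pola1, the catalytic subunit of the primer-making polymerase, were 1.83-fold and 1.76-fold lower. Rrm1, the large subunit of the enzyme that makes deoxynucleotides, had log2 differences of -0.47 and -1.10 in the media, and Mcm3, part of the replicative helicase, of -0.46 and -0.91. Pcna, the sliding clamp, read 2280 and 1704 against 2028 and 1860 and was not called (log2 difference 0.02, adjusted p = 0.946). In 39 of the 42 genes the difference was lower in osteoinductive than in growth medium, a share that was not counted over all genes. Without the osteoinductive centrifuge array 3 genes were called lower, and without the osteoinductive ground array also 3, while without the growth centrifuge array 23 were.

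Histones whose genes are expressed with replication were measured on few single-gene probe sets. Among 10 tested, 6 were called lower, against 3.78% of all genes. H1f5, a linker histone, read 891.5 and 948.8 against 1965 and 2756, a 2.53-fold fall (log2 difference -1.34, SE 0.14, adjusted p = 4.2e-05), and H4c6 fell by 2.95-fold. These genes are near-identical copies of one another, so a probe set may read more than its named gene. Among 19 inhibitors and brakes of the cell cycle 2 were called higher and 2 lower, against 6.34% and 3.78% of all genes. Cdkn1c, an imprinted inhibitor of cyclin-dependent kinases, rose from 187 and 209.7 to 570.6 and 518.7, a 2.75-fold rise (log2 difference 1.46, SE 0.13, adjusted p = 1.58e-05), and Gas6, a growth-arrest ligand, rose by 1.66-fold. Cdkn2c, an inhibitor of the kinases that start the cycle, and Rbl1, a relative of the retinoblastoma protein, were 1.90-fold and 1.53-fold lower. The call of Rbl1 ended without either osteoinductive array, and that of Gas6 without the growth centrifuge or the osteoinductive ground array.

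**Figure D2:**
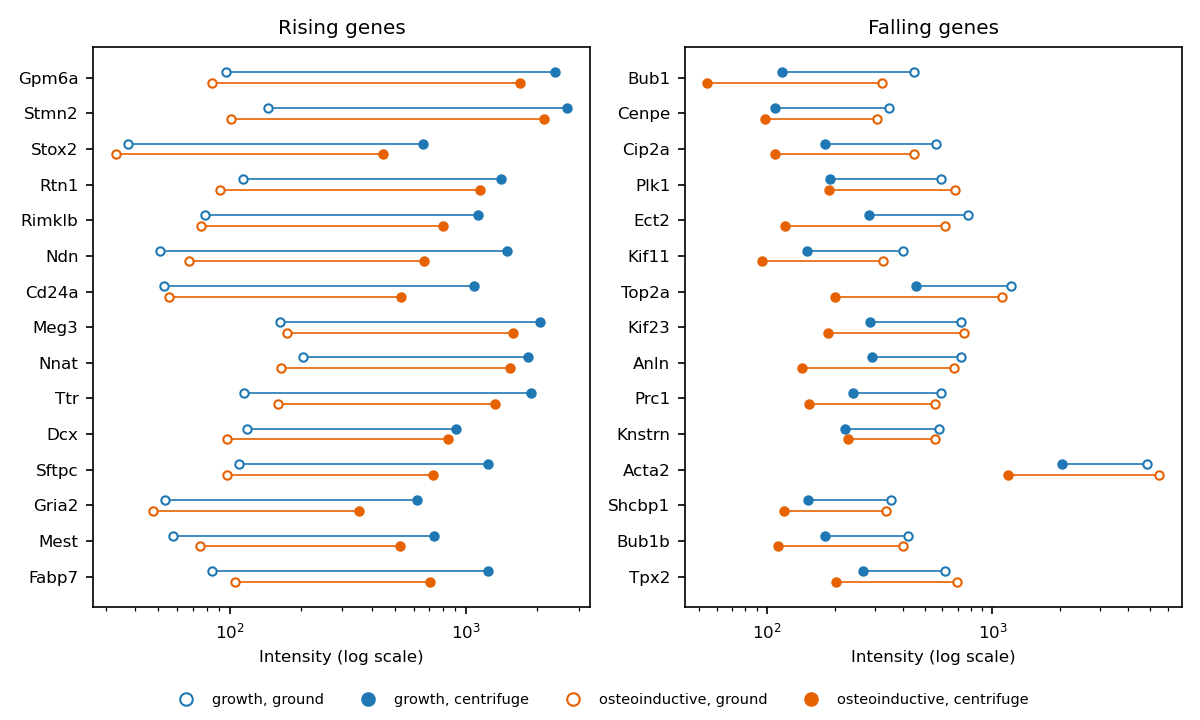
Intensity on a log axis of the 15 highest rises (left) and the 15 deepest falls (right), ranked by the smaller of the 2 differences within a medium, with ground arrays as open and centrifuge arrays as filled circles, growth medium in blue and osteoinductive medium in orange. For every gene shown the 2 filled circles lie on one side of the 2 open ones, as for Gpm6a at 2376 and 1697 against 96.4 and 84.3.

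The start regions of these falling genes were searched for a pair of well-known short elements of cell cycle promoters, the CCAAT box and the CHR (cell cycle genes homology region). RefSeq promoter windows of 300 bases, from 250 before to 50 after the start (GRCm38.p6), were found for 53 of the 63 mitosis and spindle genes. The letters TTTGAA of the CHR, on either strand, stood in 67.9% of the 56 windows of these genes and in 17.9% of all 32851 windows. The letters CCAAT, on either strand, stood in 73.2% and 37.4%. These are matches of letters, given as a description and not as bound sites. The 250 bases before the start of Ect2, the exchange factor that triggers the contractile ring, hold both elements and are shown with them in capitals (chr3:27153879-27154128, minus strand): the CHR letters begin 114 bases before the start and the CCAAT letters 96 and 55 bases before it.
Ect2: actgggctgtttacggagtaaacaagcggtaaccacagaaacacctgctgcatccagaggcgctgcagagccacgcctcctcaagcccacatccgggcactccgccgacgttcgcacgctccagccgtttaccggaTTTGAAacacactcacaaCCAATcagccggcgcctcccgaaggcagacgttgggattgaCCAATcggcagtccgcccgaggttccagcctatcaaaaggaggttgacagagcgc
Ect2 itself read 284 and 119.6 on the centrifuge arrays and 781.9 and 613.7 on the ground arrays. For the replication list the E2F letters TTTGGCGC, on either strand, stood in 14.3% of 42 windows and in 0.514% of all windows.

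Genes of the unfolded protein response, which raises the folding capacity of the endoplasmic reticulum when secretion is heavy, fell as well. Of 30 tested, 16 were called lower and none higher, against 3.78% of all genes, with a median of -0.44 (-0.34 and -0.57 in the media). Hyou1, a large chaperone of the reticulum, read 1683 and 1329 against 3325 and 3220, a 2.19-fold fall (log2 difference -1.13, SE 0.13, adjusted p = 9.69e-05). Sdf2l1, Creld2 and Pdia4, which take part in folding there, fell by 2.42-fold, 2.20-fold and 1.78-fold, and Ddit3, the stress transcription factor CHOP, by 2.05-fold. Calr, the calcium-binding chaperone calreticulin, fell from 6813 and 6854 to 5022 and 3864. Hspa5, the master chaperone BiP, read 12428 and 7996 against 12953 and 11795 and was not called (log2 difference -0.31, SE 0.14, adjusted p = 0.194), and Xbp1, a transcription factor of the response, was not called either (-0.30, adjusted p = 0.165). The called number was 5 without either osteoinductive array, 9 when the growth ground array was dropped and 19 when the growth centrifuge array was.

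The element of this response is longer and rarer. The ERSE (endoplasmic reticulum stress element), searched on both strands as CCAAT and CCACG with 9 bases of any kind between them, stood in 37% of the 27 windows found for this list and in 0.119% of all windows. Every ERSE match also holds a CCAAT match. The 250 bases before the start of Creld2 are shown because it is among the deepest falls of the list and carries the element, in capitals and on the reverse strand, 126 bases before the start (chr15:88819396-88819645, plus strand).
Creld2: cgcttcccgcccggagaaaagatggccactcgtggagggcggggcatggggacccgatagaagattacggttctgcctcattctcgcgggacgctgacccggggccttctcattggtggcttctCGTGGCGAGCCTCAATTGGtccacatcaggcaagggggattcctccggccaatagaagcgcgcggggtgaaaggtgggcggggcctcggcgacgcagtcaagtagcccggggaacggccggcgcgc
Creld2 read 1031 and 842.8 on the centrifuge arrays and 1874 and 2241 on the ground arrays. Of 31 genes of the secretory pathway itself 2 were called lower, which is 6.45%, beside 3.78% of all genes. They were Sec11c, of the signal peptidase, at 1.52-fold and Sec24d, of the coat of vesicles leaving the reticulum, at 1.34-fold. The number was 13 without the growth centrifuge array, 0 without either osteoinductive array, and 0 with no filter on dim genes.

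Of 38 tested genes of the actin cytoskeleton and its transcription factor SRF, 12 were called lower and none higher, against 3.78% of all genes called lower, with a median of -0.29. The other 26 were not called. Acta2, the smooth muscle actin of contractile stromal cells, fell from 4863 and 5508 to 2034 and 1166, a 3.36-fold fall (log2 difference -1.75, SE 0.20, adjusted p = 0.000104). Cnn2, a calponin, Flna, the actin crosslinker filamin A, and Tagln2, a transgelin, were 2.08-fold, 1.61-fold and 1.60-fold lower. Myh9, the heavy chain of non-muscle myosin, fell from 3165 and 3483 to 1913 and 2484, and Srf itself was 1.34-fold lower (adjusted p = 0.0409). Actb, the cytoplasmic actin, read 12091 and 12120 against 13070 and 13274 and was not called. The called number fell to 2 without the osteoinductive centrifuge array and to 5 without either ground array.

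Of 31 integrins and focal adhesion proteins, which tie the matrix to actin, 6 were called lower and none higher, again against 3.78%, and 25 were not called. Parva, the actin-binding adaptor parvin, read 839.8 and 861.7 against 1219 and 1394, 1.53-fold lower, and Itgav, the alpha V integrin, read 1079 and 1042 against 1695 and 1518, 1.51-fold lower. Tln1, the integrin activator talin, Itga11, a collagen-binding integrin, and Tgfb1i1, the adaptor Hic-5, fell by between 1.40-fold and 1.42-fold. With the growth centrifuge array left out 10 were called, with the osteoinductive one 2, and with either ground array 1.

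Of 38 collagen chains 5 were called lower and 2 higher, against 3.78% and 6.34% of all genes. Col6a1 and Col6a2, chains of the microfibrillar collagen VI, were 1.53-fold and 1.48-fold lower, as were Col8a1 (1.58-fold), Col5a2 (1.37-fold) and Col11a1 (1.37-fold). Col2a1, the main collagen of cartilage, rose from 371.3 and 414.3 to 706.2 and 918 (2.05-fold, adjusted p = 0.000221), and Col14a1, a fibril-associated collagen, rose by 1.82-fold. Of 24 genes that process collagen 6 were called lower and 1 higher. Serpinh1, the collagen chaperone HSP47, read 593.2 and 512 against 840.4 and 894.4, 1.57-fold lower (adjusted p = 0.00364), and the crosslinking oxidases Loxl3 and Loxl1 were 1.80-fold and 1.41-fold lower. Adamts3, which trims procollagen, rose by 1.78-fold. Without either osteoinductive array or the growth ground array 1 collagen was called lower, and without either microgravity array 4 were called higher. For the processing genes the lower calls numbered 1 without the osteoinductive centrifuge array and 0 without the osteoinductive ground array.

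Among 26 matricellular proteins, which modulate how cells read the matrix, 4 were called higher and 1 lower. Sparcl1, a relative of osteonectin, rose from 118.7 and 166.7 to 968.4 and 700.8, a 5.86-fold rise (log2 difference 2.55, SE 0.20, adjusted p = 5.68e-06). Postn, periostin, rose by 1.58-fold, and Tnc, tenascin C, fell, with differences of -0.24 in growth medium and -1.70 in osteoinductive medium. Of the elastic fibre genes 3 of 16 were called higher and 2 lower, against 6.34% and 3.78% of all genes. The rises numbered 1 without either centrifuge array, without the osteoinductive ground array, or with no filter on dim genes. Fbn2, a fibrillin, rose by 1.88-fold, and Eln, elastin, by 2.26-fold with an adjusted p at the threshold. Without either ground array 2 matricellular genes were called higher. The call of Postn ended in each fit that left out a centrifuge or ground array, and that of Tnc without either osteoinductive array.

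**Figure D3:**
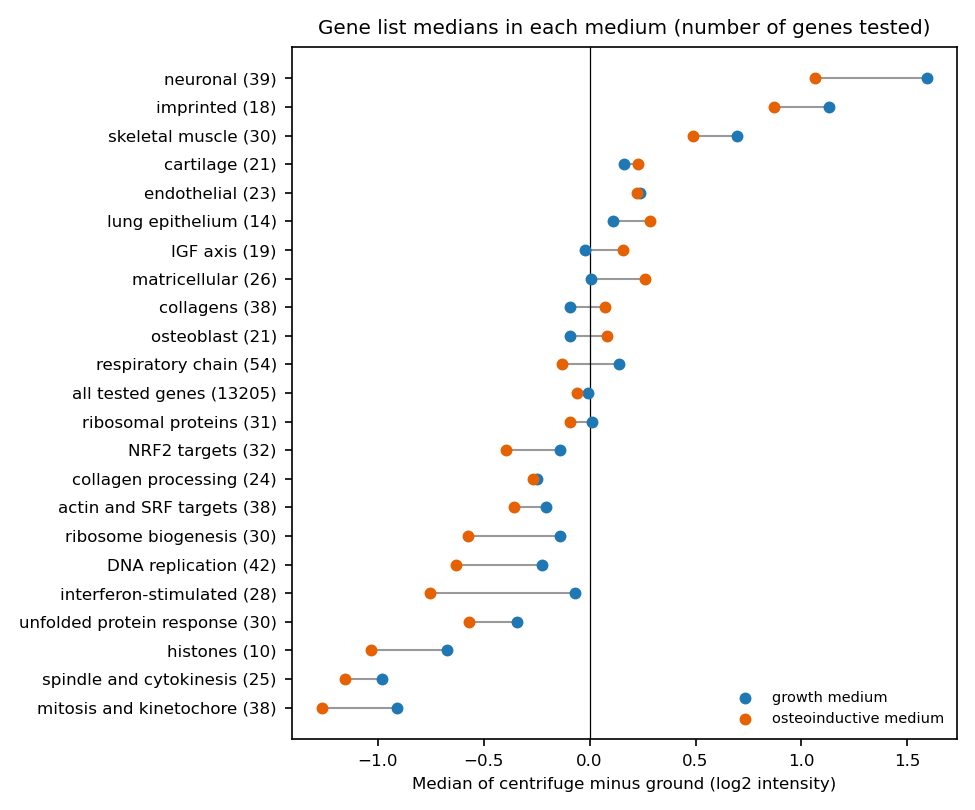
Median log2 difference between centrifuge and ground for 22 gene lists and all tested genes, with growth medium in blue and osteoinductive medium in orange, 1 array a side, and the number of genes in brackets. Mitosis genes lie near -0.91 and -1.26 and neuronal genes at 1.59 and 1.06, and the medians of the interferon-stimulated genes lie far apart, at -0.07 and -0.75.

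The largest rises were in genes of nerve cells, which are not characteristic of marrow stroma. Of 39 tested neuronal genes 30 were called higher and none lower, against 6.34% of all genes, and the median log2 difference was 1.32, with 1.59 (growth) and 1.06 (osteoinductive) in the media. Both centrifuge arrays read above both ground arrays in 34 of the 39, compared with 20% of all genes. Leaving out a centrifuge or ground array gave between 24 and 29 calls. In bulk RNA, more cells of a kind and more RNA per cell cannot be told apart. The list was drawn up with the rise of such genes in these arrays already known.

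Gpm6a, a membrane glycoprotein of growing nerve processes (probe set 10571815), read 2376 and 1697 on the centrifuge arrays and 96.4 and 84.3 on the ground arrays. It was 22.3-fold higher (log2 difference 4.48, SE 0.15, adjusted p = 2.78e-09), which is the largest fitted difference of any tested gene. Stmn2, a regulator of microtubules in growth cones (probe set 10490818), read 2683 and 2139 against 146 and 101.3 and was 19.7-fold higher (4.30, SE 0.12, adjusted p = 8.08e-10). Both genes thus went from the dim part of the array to well above its median.

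Other members span the nerve cell from cytoskeleton to synapse. Dcx, which guides migrating neurons, read 909.6 and 836.8 against 118.7 and 98.0, Tubb3, the neuronal tubulin, 860.4 and 667.9 against 181.9 and 163, and Map2, the microtubule-associated protein of dendrites, 811.2 and 607.9 against 176 and 156.4. Gria2, a subunit of the AMPA glutamate receptor, was 9.25-fold higher, Syt1, the calcium sensor of synaptic vesicles, 6.99-fold, and Syp, a vesicle membrane protein, 4.20-fold. The reticulon Rtn1, of neuronal endoplasmic reticulum, rose by 12.4-fold. Slc17a6, the vesicular transporter of excitatory neurons, rose by 3.45-fold and Gad1, the enzyme that makes the inhibitory transmitter GABA, by 1.51-fold. Stox2, Rimklb and Cd24a, which are not in the list, rose by 15.4-fold, 12.3-fold and 14.0-fold.

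Of 10 tested genes of glia and neural crest 3 were called higher, against 6.34% of all genes: Fabp7, a fatty acid binding protein of radial glia, from 84.5 and 105.2 to 1232 and 703.3 (9.87-fold, adjusted p = 1.85e-06), Ednrb, an endothelin receptor of neural crest, by 2.50-fold, and Sox2, a transcription factor of neural progenitors, by 2.30-fold. Gfap, the filament of astrocytes, read 161 and 166.9 against 145.2 and 164.8 and was not called (log2 difference 0.08, adjusted p = 0.738). The call of Sox2 held only without the osteoinductive ground array among the fits that left out 1 centrifuge or ground array. Of 19 genes of microtubules and the nuclear envelope 6 were called higher and 3 lower. Tubb2b rose from 309.6 and 280.7 to 1542 and 1479 (5.12-fold) and Tuba1a from 2263 and 2078 to 5302 and 4530 (2.26-fold), whereas Tubb6, a tubulin of many non-neural cells, fell by 1.54-fold and Lmna, the nuclear lamin, by 1.45-fold. Without the osteoinductive centrifuge array 3 of these 19 genes were called higher and none lower.

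Genes of skeletal muscle fibres formed the second group of rises. Of 30 tested, 16 were called higher and none lower, against 6.34% and 3.78% of all genes, the median being 0.53 (0.70 and 0.49). In 24 of the 30 both centrifuge arrays read above both ground arrays, compared with 20% of all genes. Acta1, the actin of muscle fibres, read 1894 and 1347 against 352.8 and 322.5, a 4.73-fold rise (log2 difference 2.24, SE 0.16, adjusted p = 2.44e-06). Myh8 and Myh3, the perinatal and embryonic myosin heavy chains, were 4.42-fold and 2.84-fold higher, Ttn, the giant spring protein titin, 3.63-fold, and Ckm, the creatine kinase of muscle, 2.57-fold. Myod1, which commits cells to muscle, read 232.9 and 233.6 against 215.9 and 191.8 (log2 difference 0.20, adjusted p = 0.375), and Myog, a later regulator, lay below the filter. The calls numbered between 13 and 15 when a centrifuge or ground array was left out.

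Markers of other tissues were read from a fit over all 19938 genes, dim ones included, in which 7.61% were called, 5.34% higher and 2.27% lower. Neuronal genes numbered 32 of 42 higher there and genes of glia and neural crest 4 of 17. Skeletal muscle genes numbered 17 of 38 and endothelial genes 4 of 30, with none lower in any of these lists. The 4 endothelial genes (Kdr, Cldn5, Ramp2 and Rasip1) were also called among the filtered genes, where the list had 2 calls without either centrifuge array, 0 without the osteoinductive ground array, and 7 without either microgravity array. The summed intensity of the neuronal list was 34271 and 26049 on the centrifuge arrays and 12725 and 12335 on the ground arrays, and that of the muscle list 14961 and 13074 against 7126 and 7170. Lung, liver and kidney had 1 call each, of 19, 19 and 16 genes. Sftpc, surfactant protein C of the lung, read 1233 and 724.2 against 109.7 and 97.6 (9.14-fold, log2 difference 3.19, SE 0.47, adjusted p = 0.000682). Its partner Sftpb read 198.7 and 205 against 171.1 and 196.1 and was not called (adjusted p = 0.855). Ttr, the thyroid hormone carrier made by liver and choroid plexus, read 1881 and 1323 against 114.7 and 159.6 (11.7-fold). Alb, the defining liver gene, lay below the filter at 81.1 and 78.6 against 82.7 and 60.4. Macrophage markers had 1 call of 29, a median of -0.04, and summed intensities of 7357 and 7097 against 6570 and 6245. What part these marker levels have in the other results was not tested.

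**Figure D4:**
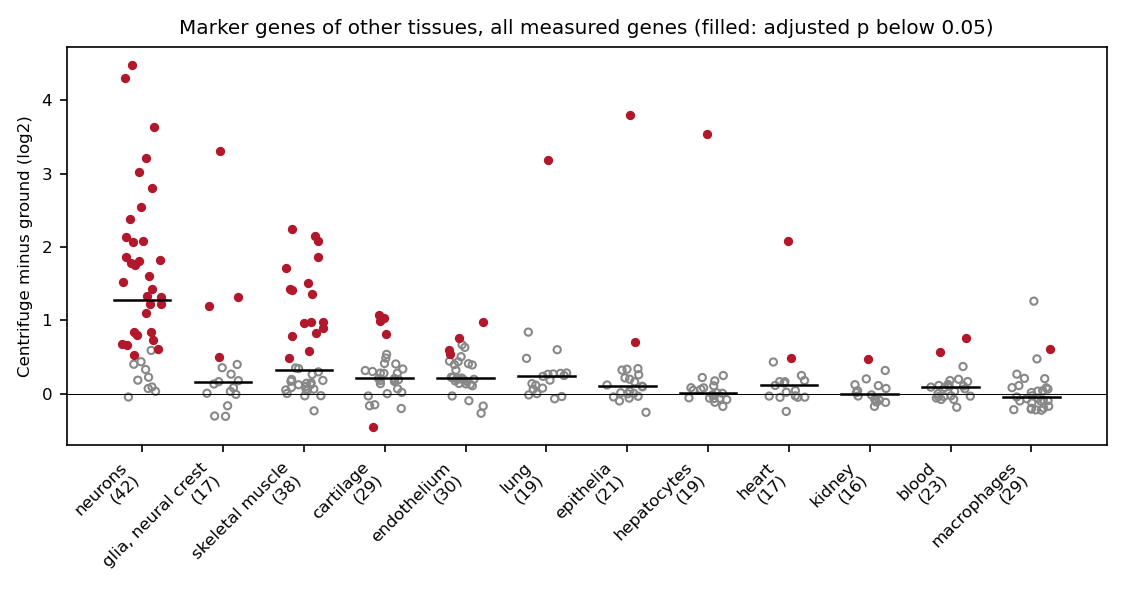
Log2 difference between centrifuge and ground of every measured marker gene of 12 tissues or cell types, from the fit without the filter, with filled points at an adjusted p below 0.05, medians as bars and the number of genes in brackets. Neuronal markers spread up to 4.48 with a median of 1.27 and muscle markers have a median of 0.32, while lung, epithelia, liver and heart each hold a single gene far above the rest.

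Imprinted genes, of which only the maternal or the paternal copy is active and many of which promote growth before birth, rose in part. Of 18 tested, 10 were called higher and none lower, against 6.34% and 3.78% of all genes, with a median of 1.00 (1.13 and 0.87). The filter on dim genes, a mean over flown and ground arrays, can favour genes that rose. Over all 30 measured, dim ones included, 15 were called higher, against 5.34% of all genes, and the median was 0.43 (0.57 and 0.37). Ndn, necdin, read 1487 and 663.8 against 50.8 and 67.4, a 17.0-fold rise (log2 difference 4.09, SE 0.28, adjusted p = 1.58e-06), with 4.87 in growth medium and 3.30 in osteoinductive medium. Nnat, neuronatin, Mest and Peg3, all expressed from the paternal copy, were 9.08-fold, 9.41-fold and 4.29-fold higher. Igf2, the fetal growth factor, rose from 228.9 and 230.3 to 1477 and 1306 (6.05-fold, adjusted p = 3.72e-08), and Cdkn1c, its maternally expressed neighbour, has been given above. The others called among the 18 were Meg3, Dlk1, Nap1l5 and Plagl1. Grb10 and Igf2r, imprinted genes that restrain growth, read 1073 and 738.8 against 1298 and 1175 and 2512 and 2274 against 3017 and 2892, and neither was called (adjusted p = 0.0698 and 0.3).

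Meg3 and Dlk1 belong to one imprinted domain, on chromosome 12, which also holds many microRNA genes up to Dio3. Meg3, its long non-coding RNA, read 2059 and 1575 against 163.4 and 174.3 (10.7-fold), and Dlk1, a Notch-like regulator of stromal and fat cells, 878 and 936 against 316.9 and 362.4 (2.68-fold). The microRNA genes in between were looked at after the rise of Meg3 had been seen. Of 61 annotated there, 40 were on the array and 17 passed the filter, and 8 of the 17 were called higher and none lower, against 6.34% and 3.78% of all genes. Their median log2 difference was 0.41, and all 17 were above 0. The filter uses the mean over all 8 arrays, so genes high only on flown arrays can pass it, which favours rises among the 17. Genes of the 40 below the filter are not in these counts. Of 102 microRNA genes elsewhere, 3 were called higher and 2 lower, with a median of 0.07.

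Mir487b read 389.4 and 204.7 against 82.3 and 67.4 (3.79-fold, log2 difference 1.92, SE 0.19, adjusted p = 2.71e-05) and Mir329 367.1 and 223.8 against 81.3 and 103.2 (3.13-fold). Mir679, Mir370, Mir127, Mir337, Mir341 and Mir431 followed at between 1.34-fold and 1.73-fold. Whether these probe sets read the hairpin, its long host transcript or the mature RNA was not stated in any source used here. A microRNA finds its targets through its seed, bases 2 to 8. The RefSeq tables (GRCm38.p6) hold 15 mature sequences of the 8 called genes with 15 distinct seeds, so that no seed is shared. Those of the 4 highest rises with their seeds in capitals are shown because the seed largely sets which transcripts a microRNA can pair with.
miR-487b-5p: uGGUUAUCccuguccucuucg
miR-329-5p: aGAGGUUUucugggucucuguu
miR-329-3p: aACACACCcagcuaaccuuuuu
miR-679-5p: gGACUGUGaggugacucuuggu
miR-679-3p: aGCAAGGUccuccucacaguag
miR-370-5p: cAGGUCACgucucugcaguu
miR-370-3p: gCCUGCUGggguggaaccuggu
Mir127 and Mir431 lost their call in each fit that left out 1 of the 4 centrifuge and ground arrays. Mir341 kept its call only without the growth centrifuge array, and Mir337 lost its call without either ground array. Mir370 lost its call without the growth ground array, whereas Mir487b, Mir329 and Mir679 were called without any one of these 4 arrays. The 2 called falls elsewhere were Mir145a, host to a microRNA of contractile smooth muscle cells, from 171.2 and 180.7 to 112.1 and 116.2 (1.54-fold), and Mir504 (1.41-fold). The 3 rises elsewhere were Mir150, Mir9-1 and Mir181c, at 1.65-fold, 1.54-fold and 1.38-fold. None of these 5 genes was called without either osteoinductive array.

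The insulin-like growth factors and their binding proteins, which store and present them in bone, had 5 of 19 genes called higher and none lower. Beside Igf2 these were Igfbp5, the most abundant binding protein of bone matrix, from 223.2 and 607.6 to 781.2 and 1192 (2.62-fold), Igfbp2 (2.00-fold), Igfbp3 (1.58-fold) and Igf1 (1.40-fold). The call of Igfbp3 ended without either osteoinductive array, and that of Igf1 in each fit that left out a centrifuge or ground array. With no filter on dim genes 4 of 29 cartilage genes were called higher and 1 lower, against 5.34% and 2.27% of all genes. In the list of cartilage genes that passed the filter 5 of 21 were called higher and 1 lower. Over all genes, beside which both lists stand, 6.34% were called higher and 3.78% lower. Beside Col2a1 the rises were Matn1, a matrilin, from 112.7 and 109.5 to 257.3 and 190.5 (1.99-fold), Acan, the large proteoglycan aggrecan (1.76-fold), Cnmd (1.45-fold) and Sox6 (1.33-fold). The cartilage rises numbered 3 without any one of the centrifuge and ground arrays and 7 without either microgravity array.

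Of 21 genes that define bone-forming cells 1 was called higher and 2 lower, against 6.34% and 3.78% of all genes, with a median of 0.03. Ibsp, bone sialoprotein, rose from 67.2 and 81.8 to 279.9 and 199.4 (3.19-fold, log2 difference 1.67, SE 0.18, adjusted p = 5.36e-05), Mgp, an inhibitor of mineralisation, fell by 1.49-fold, and Tnc has been described. Of 22 stromal genes 4 were called lower (Vim, Itgav, S100a4 and S100a6) and 1 higher, against 3.78% and 6.34% of all genes, with a median of -0.11. S100a6 and S100a4, calcium-binding proteins of fibroblasts, read 1092 and 1869 against 2116 and 3065 and 199.5 and 506.9 against 386.2 and 710.8, and Lum, the proteoglycan lumican, rose by 1.89-fold. Cxcl12, the chemokine that keeps blood stem cells in the marrow, read 237.2 and 289 against 327.4 and 342.9 and was not called (log2 difference -0.36, adjusted p = 0.108). Leaving out the growth ground array left 1 stromal gene called lower, and leaving out either osteoinductive or either microgravity array left 0 osteoblast genes called lower.

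The lists below stand beside 6.34% of all genes called higher and 3.78% called lower. Of the glucocorticoid and hypoxia lists, given next, 22.7% and 8.82% of the tested genes were called. Of 22 glucocorticoid targets and metallothioneins 5 were called higher, among them Glul, glutamine synthetase, by 1.99-fold, and 1 was called without either osteoinductive array. Of 34 hypoxia and glycolysis genes 3 were called higher, with Aldoc, the aldolase of nervous tissue, from 208.6 and 179 to 992.6 and 652.6 (4.16-fold, adjusted p = 3.05e-06), and again 1 was called without either osteoinductive array. Sfrp2, a secreted Wnt modulator, rose by 2.64-fold, and Ctsk, the collagen-degrading cathepsin of bone, by 2.12-fold. Rny1, a small non-coding RNA tied to DNA replication, fell from 450.7 and 506.7 to 211.5 and 127.5 (2.91-fold, adjusted p = 8.02e-05). No gene was called by limma among 54 of the respiratory chain, 31 ribosomal proteins, 30 heat shock genes and 13 that control osteoclasts, where 5, 5, 7 and 2 had an unadjusted p below 0.05. Their medians were 0.01, -0.05, -0.08 and -0.17. When the growth centrifuge array was dropped, 3 heat shock genes, 2 ribosomal protein genes and 4 osteoclast control genes were called lower and 1 respiratory chain gene higher. Each of the other fits that left out 1 array called at most 1 gene of a list in a direction.

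Several lists moved mainly in osteoinductive medium. Interferon-stimulated genes, which cells use against viruses, had 4 of 28 called lower (Irf1, Psmb8, Tap1 and Ifih1, at between 1.47-fold and 1.63-fold) and none higher. Over all genes 3.78% were called lower. The medians of the list were -0.07 and -0.75 in growth and osteoinductive medium, against -0.01 and -0.06 over all tested genes. All 28 were lower on the centrifuge in osteoinductive medium and 16 in growth medium. In osteoinductive medium 20 of the 28 were below -0.5, compared with 8.74% of all genes, and in growth medium none was, compared with 1.73%. Ifit3, an antiviral protein strongly induced by interferon, read 1880 against 1382 in growth medium and 181.3 against 613.5 in osteoinductive medium, so that the 2 media moved in opposite directions (0.44 and -1.76). Its fitted difference of -0.66 was not called (SE 0.36, adjusted p = 0.306). The chemokine Cxcl10 read 1308 against 1033 and 169.2 against 551.7, and Bst2, which tethers budding viruses, 2525 against 2065 and 816.7 against 1689. Usp18, Rsad2 and Ifit1 also had opposite signs. The 4 calls became 0 without either osteoinductive array and 19 without the growth centrifuge array, and they were 7 without either dish array. Differences between media within this comparison were not tested, since each rests on 1 array a side.

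The letters of the ISRE (interferon-stimulated response element) were searched on both strands as GAAA, any 2 bases and GAAA again. They stood in 48.3% of the 29 promoter windows of this list and in 3.44% of all windows. Of the 4 genes of the list called lower, all had a window and 1 held the letters. The 250 bases before the start of Ifit3, the gene with the widest gap between media, hold 2 matches, in capitals and on the reverse strand, 156 and 122 bases before the start (chr19:34583279-34583528, plus strand).
Ifit3: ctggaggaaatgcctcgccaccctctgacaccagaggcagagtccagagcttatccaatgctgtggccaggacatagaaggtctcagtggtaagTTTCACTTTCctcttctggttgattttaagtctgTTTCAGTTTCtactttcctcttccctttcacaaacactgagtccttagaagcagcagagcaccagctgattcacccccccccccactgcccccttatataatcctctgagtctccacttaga
On the ground Ifit3 stood at 1382 (growth) and 613.5 (osteoinductive), and the medium with the lower level on the ground was also that with the lower level on the centrifuge. Of 9 genes of MHC class I and of peptide loading for it 3 were called lower, against 3.78% of all genes. H2-Q4 read 905.5 and 313.4 against 1190 and 954.8 (2.00-fold, adjusted p = 0.0129). H2 genes are near-identical copies, so this value is uncertain, and none of the 9 was called without either osteoinductive array.

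Targets of NRF2, the transcription factor of the antioxidant response, had 9 of 32 called lower and none higher, against 3.78% of all genes called lower, with a median of -0.14 and -0.39 in the media. The number was 4 without either microgravity array and 2 with quantile normalization. Hmox1, haem oxygenase, read 3240 against 3975 in growth medium and 1235 against 3196 in osteoinductive medium (1.78-fold in the fit, log2 difference -0.83, SE 0.23, adjusted p = 0.0348). Gclm, which regulates glutathione synthesis, read 2458 against 2746 and 794 against 2250, and Srxn1, which repairs oxidised peroxiredoxins, 1219 against 1431 and 444.8 against 1053. The differences in growth medium were -0.29, -0.16 and -0.23 in the same order. Genes of ribosome biogenesis had 7 of 30 called lower. In all 30 the difference was lower in osteoinductive than in growth medium (medians -0.57 and -0.14, against -0.06 and -0.01 over all tested genes). The share of all genes with a lower difference in osteoinductive medium was not counted. Gar1, which guides the modification of ribosomal RNA, read 1689 against 2198 and 1002 against 2029. In both lists no gene was called without either osteoinductive array, while 13 NRF2 targets and 21 ribosome biogenesis genes were called lower without the growth centrifuge array.

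**Figure D5:**
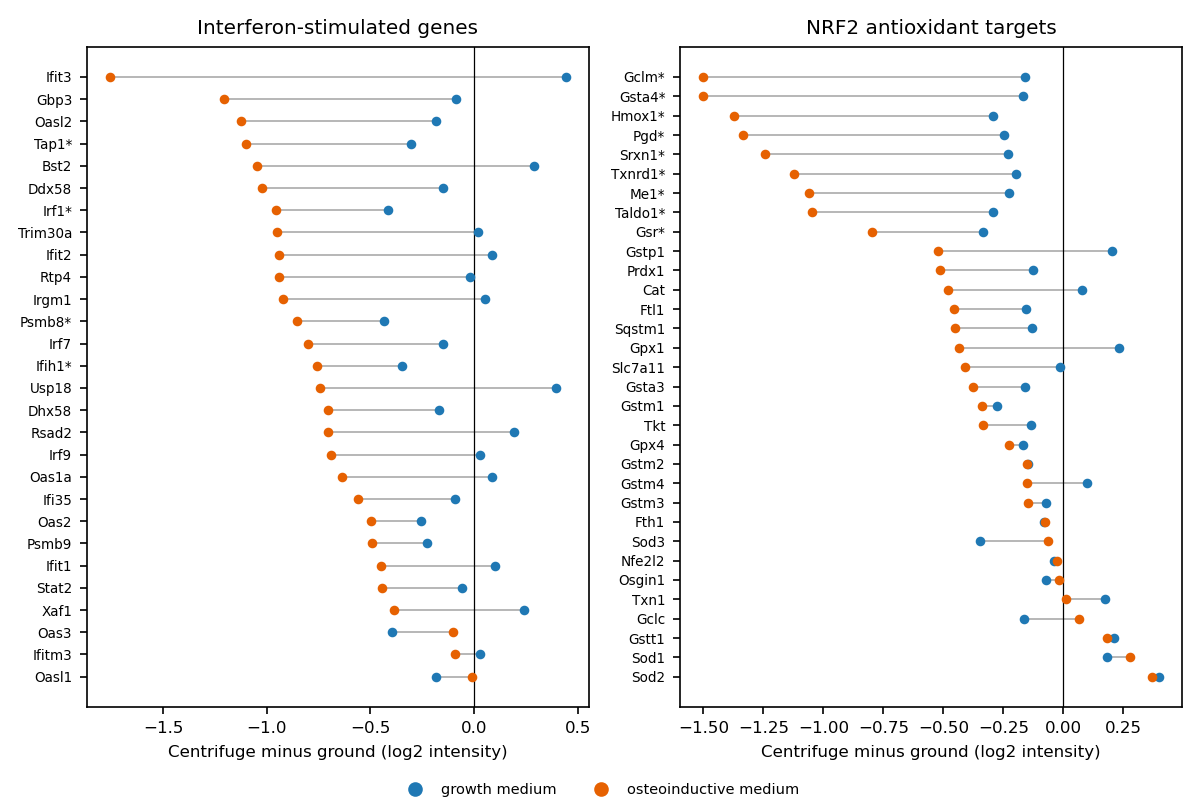
Log2 difference between centrifuge and ground of every tested interferon-stimulated gene (left, 28 genes) and NRF2 target (right, 32 genes), with growth medium in blue and osteoinductive medium in orange, 1 array a side, and an asterisk for an adjusted p below 0.05. Orange points reach -1.76 for Ifit3 and -1.50 for Gclm, while the blue points of the interferon-stimulated genes lie between -0.43 and 0.44.

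Tested genes other than predicted ones were ranked by the difference in osteoinductive medium minus that in growth medium. The lowest by this gap were Ifit3, Crabp1, Cxcl10, Ndn, Tnc and Gas2. Crabp1, a carrier of retinoic acid, read 2793 against 3441 in growth medium and 683.7 against 3699 in osteoinductive medium, and it was called (2.58-fold, log2 difference -1.37, SE 0.34, adjusted p = 0.0227), though not without either osteoinductive array. Gas2, a growth-arrest protein of actin fibres, read 1174 against 1234 and 314.8 against 908.3 and was not called (adjusted p = 0.0662). The highest by this gap were Kcnj14, Ctla2a, Fetub, Hamp2, Try10 and Snora44, none of them called. Ctla2a, a cathepsin inhibitor, read 56.7 against 74.5 in growth medium and 1462 against 693.1 in osteoinductive medium.

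Centrifuge and microgravity cultures flew together, and limma called no gene between them, where the lowest adjusted p was 0.187. Before adjustment, 1507 genes had a p below 0.05. The number called was 25 without the dish arrays, 47 without the growth microgravity array and 3 without the osteoinductive microgravity array, and an adjusted p that misses the threshold does not show that the conditions were alike. Sftpc read 1515 and 7190 in microgravity, beside 1233 and 724.2 on the centrifuge, its log2 difference of 1.80 between the 2 conditions having an adjusted p of 0.27. Gpm6a read 2623 and 1990, and Bub1 read 108 and 90.5. Between ground units and dishes limma also called no gene (smallest adjusted p 0.441, 269 genes at an unadjusted p below 0.05), under any of the alternatives run. In the dishes Gpm6a read 91.8 and 100.3, Acta2 4866 and 5195, and Bub1 361 and 253, near their levels in the ground units. Against the dishes the centrifuge arrays had 801 genes called higher (6.07%) and 514 lower (3.89%). That comparison shares the centrifuge arrays with the one above. The 837 rises and 499 falls called against the ground units had medians of 0.74 and -0.54 against the dishes. Against the ground units, where they were selected, their medians were 0.74 and -0.59.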

How the data were processed

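RNA was hybridised to 8 Affymetrix arrays, 1 for each of 4 conditions in each of 2 media. The deposited table holds the authors' normalized values as linear intensities, per the file headers and values; RMA and GCRMA stand in the submitters' processing notes with no version, and which of them was used is not stated. Log2 of the deposited intensities was taken here. Of 35557 probe sets, 21789 name 1 gene (1621 several, 12147 none). The brightest single-gene probe set on average stood for each of 19938 genes, and the 13205 whose mean log2 exceeded that of 40% of the probe sets were tested. The mean was over all 8 arrays, so a gene bright only on flown arrays could pass. limma 3.58.1 (R 4.3.3) fitted condition and medium to all 8 arrays with 3 residual degrees of freedom, so the medium pairs the arrays. Calls are two-sided with a Benjamini-Hochberg adjusted p below 0.05. The fit was tested on simulated data. Differences within a medium have 1 array a side and no test.

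The text names the 15 highest rises and the 15 deepest falls by the smaller difference within a medium, the leading called genes of each list, and the 6 widest gaps between media each way. Other genes were added after their values were seen. Members and lists were chosen with earlier results of these data known. Promoter and microRNA sequences are from RefSeq (GRCm38.p6). The number of arrays limits the precision.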

Additional observations from a re-analysis of the deposited data

Results flagged for a closer look

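For 14 of the named genes that passed the filter on dim genes the difference between centrifuge and ground had opposite signs in the 2 media, with 1 array a side in each. The gap between media, as the difference in osteoinductive medium minus that in growth medium on the log2 scale, was not tested for any of them. Of the interferon-stimulated genes, Ifit3 had a gap of -2.20 (0.44 in growth medium and -1.76 in osteoinductive medium), Bst2 of -1.34, Usp18 of -1.14, Rsad2 of -0.90 and Ifit1 of -0.55. The chemokine Cxcl10, itself induced by interferon, had a gap of -2.05 and the replication clamp Pcna one of -0.30. In the other direction the gap was 0.10 for Col1a1, 1.13 for Snora44, 1.14 for Try10, 1.30 for Hamp2, 1.41 for Fetub, 1.47 for Ctla2a and 1.49 for Kcnj14. None of the 14 was called in the fit over both media, where opposite signs shrink the difference and widen the spread.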

How the results depend on the processing

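Of 1336 calls between centrifuge and ground (837 higher, 499 lower), 641 (330, 311) were made with the filter at the 60th percentile and 535 (439, 96) with no term for medium, which is the fit without the pairing block. Quantile normalization, no filter, 32 added before log2, the mean over probe sets, an intensity trend, only the 4 arrays compared, and either pair of other arrays left out gave between 1238 and 1599 calls. The rises were 62.6% of the calls, 51.5% with the stricter filter, 82.1% with no term for medium and 34.3% without the growth centrifuge array. Leaving out 1 array gave between 643 and 2087 calls, between 483 and 902 higher and between 117 and 1372 lower. Between microgravity and centrifuge the 0 calls became 25 without both dish arrays and between 0 and 47 without 1 array. Of 213 named calls none turned its direction in these settings, but 119 were lost with no term for medium, and 104, 100, 62 and 32 without the osteoinductive centrifuge, osteoinductive ground, growth ground and growth centrifuge array. With the stricter filter, which tests fewer genes, the mitosis, spindle and skeletal muscle lists had 17, 8 and 8 calls. With no term for medium the replication, unfolded protein and actin lists had 2, 6 and 2. Differences of uncalled genes changed sign when 1 array was left out. They ranged from -0.26 to 0.96 for Kcnj14, -0.30 to 0.98 for Ctla2a, -0.67 to 0.35 for Fetub, -0.56 to 0.34 for Hamp2, -0.28 to 0.66 for Try10 and -0.24 to 0.84 for Snora44. They ranged from -1.44 to 0.13 for Ifit3, -1.39 to 0.028 for Cxcl10, -0.39 to 0.046 for Ifit1, -0.62 to 0.27 for Usp18, -0.60 to 0.090 for Rsad2 and -0.89 to 0.13 for Bst2. They ranged from -0.028 to 0.089 for Col1a1, -0.15 to 0.19 for Pcna, -0.016 to 0.18 for Gfap and -0.18 to 0.46 for Sftpb. The cause was not tested.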
